A study of Bos grunniens with 12 samples.

Results

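Among the 1438 m6A peaks that differed between the testes of 1.5-year-old and 5-year-old yaks, 327 lay in an exon after the first of its transcript and were over 1000 bp wide. These wide peaks, on 310 host genes, were chosen by the deposited annotation (an exon entry numbered 2 or higher) and by the deposited width, so that their differential call, their width and their exon are descriptions here and carry no test. The other later-exon peaks, 543 peaks of at most 1000 bp on 465 genes, serve as the comparison. The remaining differential peaks were 221 in exon 1, 90 in 5′UTRs and 257 in 3′UTRs.

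The 12 libraries came from 3 testes of each age, with an IP library and an input library per testis. For the IP library, mRNA fragments were pulled down with an antibody against N6-methyladenosine, and the input library was made from fragments set aside before the pull-down. The Y group is the yaks of 1.5 years (18 months in the sample titles), whose testes were obtained by castration, and the M group is the yaks of 5 years, whose testes were taken after death (slaughter in the deposited record, euthanasia in the study's methods). All samples were testis tissue of healthy domesticated yaks with no treatment, and the way of collection cannot be told apart from age. The deposited record uses the letters M and Y the other way round, and its developmental stage field gives the opposite stage for every sample. The letters are used here by the age in the titles.

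The input libraries labelled 18 months held more transcripts of haploid germ cells than those labelled 5 years. TNP1 (ENSBGRG00000002189), a transition protein that replaces histones in elongating spermatids, was at 883, 852 and 879 FPKM in the Y group and at 201, 641 and 550 FPKM in the M group. The 4 elongating spermatid markers found summed to 1154 to 1195 FPKM in the Y group and 263 to 849 in the M group, and the 5 round spermatid markers to 172 to 240 and 47.2 to 178. The 6 Sertoli cell markers summed to 73.7 to 86.6 FPKM in the Y group and 108 to 257 in the M group, and the 6 peritubular and stromal markers to 22.5 to 25.5 and 33.8 to 53.2. None of the cell type markers listed hosted a wide peak. These values go against the stage that the labelled ages would give, and each direction between the groups below is a direction between libraries labelled by these ages. In whole testis, fewer cells of a type and less RNA per cell cannot be told apart. Replicate 1 of the M group stood apart, with a Pearson correlation across genes of 0.868 and 0.923 with the other M libraries, against 0.952 to 0.958 among the Y libraries. The M library of replicate 2 had correlations of 0.942 to 0.947 with the Y libraries, above its 0.868 and 0.935 with its own group.

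N6-methyladenosine is the most common internal modification of mRNA. A methyltransferase complex built around METTL3 and METTL14 deposits it during transcription, the demethylases FTO and ALKBH5 can remove it, and reader proteins of the YTH family bind it and alter splicing, translation or decay of the transcript. In mammals the mark gathers near stop codons and in long internal exons. The fragments that are immunoprecipitated come mostly from spliced mRNA, so that a peak that crosses a splice junction is recorded on the genome as an interval that holds the intron as well.

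The wide peaks had a median width of 3392 bp, with quartiles of 1818 and 6686.5 bp. Of them, 94 were up to 2000 bp wide, 120 between 2000 and 5000 bp, 68 between 5000 and 10000 bp, 37 between 10000 and 50000 bp, and 8 over 50000 bp. The 8 widest held 25.1% of the 2534830 bp that the wide peaks covered together. The other later-exon peaks had a median of 294 bp. At the threshold stood peaks on FAAP100 (1005 bp), a subunit of the Fanconi anaemia core complex, SH3BP2 (1009 bp), a signalling adaptor, and CT83 (1010 bp), a cancer/testis antigen, and just under it peaks on MACF1 (997 bp) and CCDC50 (986 bp).

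The tables give the width of a peak on the genome and the number of its exon, but no exon boundaries, so that the intronic share of a single peak was not measured. An average distance per exon, the length of the gene divided by the number of exons of the transcript, had a median of 3429 bp over the wide peaks. Of the 327 peaks, 176 were wider than this distance in their own gene and 21 were over 5 times as wide. As crossing of an intron was not shown for single peaks, the peaks are called wide here rather than intron-spanning.

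**Figure D1:**
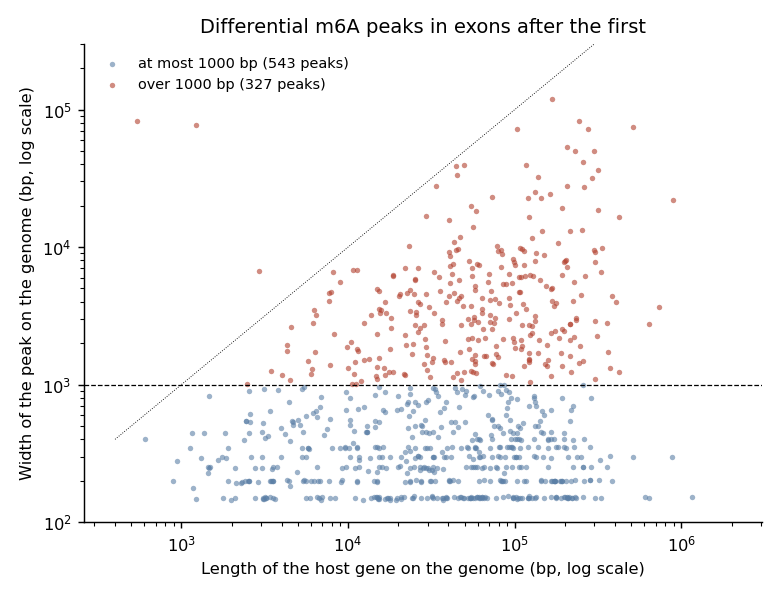
Width of each later-exon differential peak against the length of its host gene, both in bp on log scales, for 327 peaks over 1000 bp (red) and 543 of at most 1000 bp (blue). The dashed line is the width of 1000 bp that separates them, the dotted line is equal width and length, and the 3 peaks above the dotted line are wider than the gene they were assigned to.

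The widest peak covered 120070 bp at chr12:22467419-22587488 (LU_Bosgru_v3.0), or 71.4% of ENSBGRG00000019035, a gene with no symbol that is not in the gene table. Next came INPP5A (83124 bp), an inositol polyphosphate phosphatase, and CBLB (82708 bp, chr1:54383686-54466393), a ubiquitin ligase that damps receptor signalling. They were followed by PPHLN1 (77043 bp), a subunit of the HUSH silencing complex, and ARL15 (74759 bp, chr23:59282622-59357380), a small GTPase. CDK6 (72564 bp, chr4:119823740-119896303) is a cyclin-dependent kinase of the G1 phase, and its peak began 1102 bp inside the gene, in exon 2 of 8. LPAR1 (71977 bp, chr7:38349554-38421530) is a receptor for lysophosphatidic acid, and its peak in exon 2 of 3 covered 70.0% of the gene. The last of the 10 widest were on MTHFD1L (53750 bp), an enzyme of mitochondrial folate metabolism, RNF150 (49874 bp), a RING finger protein, and MCTP2 (49766 bp), a membrane protein with C2 domains. The exon of these 10 peaks was between exon 2 and exon 25, and none was the last exon.

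Of the 10 widest, 2 had been given to a gene far shorter than the peak. The INPP5A peak was assigned to ENSBGRG00000013970, a gene of 545 bp listed at 0 in every input library, while its exon, the second of 14, belongs to ENSBGRG00000013323, also named INPP5A. That gene was at 11.3, 10.9 and 11.04 FPKM in the Y group and 14.7, 10.5 and 15.5 FPKM in the M group, with overlapping groups. The PPHLN1 peak was assigned to ENSBGRG00000018622 (1224 bp, listed at 0 in 5 of 6 libraries), and its exon belongs to ENSBGRG00000017994, also named PPHLN1, at 1.25, 1.12 and 0.785 FPKM in the Y group and 0.952, 1.03 and 1.37 in the M group. A 6741 bp peak on PDCD6 (ENSBGRG00000021460), a calcium-binding protein, was wider than its gene of 2923 bp as well. In all, 6 wide peaks had an exon of another gene identifier. Besides the 2 above these were PAK2 with an exon of SENP5, SLC25A12 with HAT1, NR1D2 with THRB, and SLC26A11 with ENSBGRG00000022479.

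Wide peaks sat in long genes with many exons, and their annotated exon was seldom the last. Host genes had a median length of 58986.5 bp, against 32530 bp for the hosts of the shorter later-exon peaks and 34168 bp for all genes with a differential peak. Of the hosts, 107 (34.5%) were over 100000 bp long, against 22.4% of the hosts of shorter peaks. The transcripts had a median of 16 exons against 10, and the annotated exon had a median number of 8 against 5. Transcripts of 2 to 4 exons carried 17 wide peaks (5.20%) and 134 shorter peaks (24.7%). Since a wide interval needs a gene to hold it, length is tied to the rule. Within the wide peaks, width rose only weakly with gene length (Spearman's rho 0.27 over 327 peaks) and showed next to no relation to the number of exons (rho -0.03), and a peak covered a median of 6.91% of its gene.

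The last exon, which holds the stop codon and the 3′UTR of most transcripts, was the annotated exon of 5 wide peaks (1.53%) and 188 shorter ones (34.6%). The exon before it carried 43 wide (13.1%) and 63 shorter peaks (11.6%), and exon 2 carried 38 (11.6%) and 119 (21.9%). When each gene was cut into 5 equal parts, the centres of 129 of the 321 wide peaks inside their gene fell in the part at the 3′ end and 25 in the part at the 5′ end. For the shorter peaks these counts were 257 and 42 of 532. Wide peaks were thus placed toward the 3′ end along the gene, while their annotated exon was seldom the last. The annotation names a single exon per peak, and a wide peak can reach others. The peaks on POFUT1 (exon 6 of 7) and PGLS (exon 4 of 5) ended at the last base of their genes. The exon shares are therefore tied to the width rule and do not show that wide peaks miss the last exon. The median width was higher up to exon 5 than beyond exon 10, at 4153.5 bp in exon 2, 4470 bp in exons 3 to 5, 3437 bp in exons 6 to 10, 2760.5 bp in exons 11 to 20 and 2853.5 bp beyond.

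**Figure D2:**
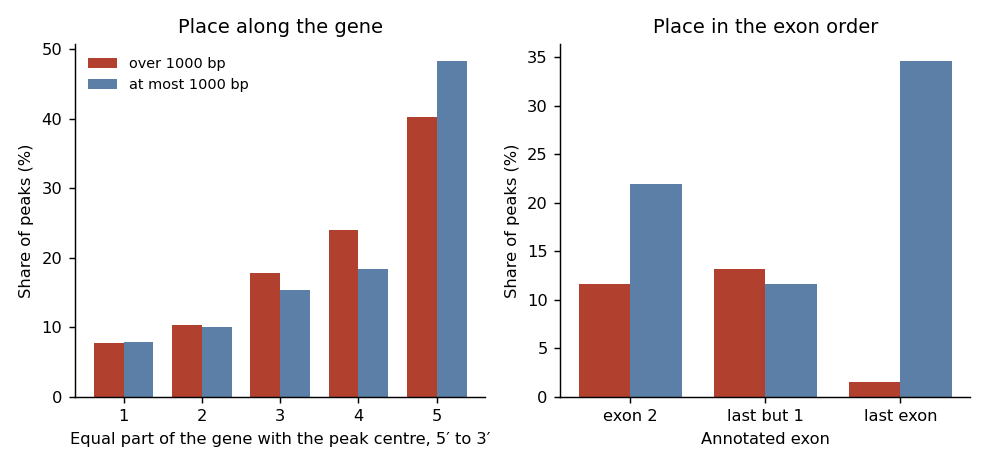
Share of later-exon differential peaks (%) by which of 5 equal parts of the gene holds the peak centre (left, 321 wide and 532 shorter peaks inside their gene) and by annotated exon (right, 327 and 543 peaks). Red bars are peaks over 1000 bp and blue bars peaks of at most 1000 bp. The last exon is the annotated exon of 1.53% of the wide and 34.6% of the shorter peaks.

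Most hosts, 296 of 310, carried 1 wide peak, 12 carried 2, PBRM1 carried 3 and SYNE2 carried 4. SYNE2 (ENSBGRG00000011817, chromosome 11, 300983 bp, 116 exons) encodes nesprin-2, which links the nuclear envelope to the cytoskeleton. Its peaks were in exon 28 (1106 bp), exon 32 (7832 bp), exon 45 (9226 bp, chr11:65673208-65682433) and exon 84 (2912 bp). PBRM1 (ENSBGRG00000010511, chromosome 22, 31 exons) encodes a bromodomain subunit of the PBAF chromatin remodelling complex, and its peaks were in exon 2 (9659 bp), exon 5 (2695 bp) and exon 24 (1910 bp). The hosts of 2 wide peaks included HTT (exons 2 and 58 of 66), the huntingtin scaffold, BIRC6 (exons 10 and 68 of 74), an inhibitor of apoptosis with ubiquitin ligase activity, IGF2R (exons 11 and 14 of 51), the receptor that clears IGF2, and RFX2 (exons 6 and 13 of 18), a transcription factor of spermatid genes.

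No wide peak overlapped another differential peak of its gene, and 56 hosts carried a further differential peak of another kind. Of these, 35 carried a shorter later-exon peak, 14 a peak in the 3′UTR, 9 in the 5′UTR and 5 in exon 1. Some of the further peaks were themselves wide. ARL15 had a 3′UTR peak of 192801 bp, MGAT5, a glycosyltransferase, a 5′UTR peak of 100963 bp, and NEO1, the netrin and RGM receptor neogenin, a 5′UTR peak of 78250 bp beside its 41531 bp peak in exon 5 of 29.

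The levels of the host transcripts were compared between the labelled ages in the input libraries, to describe the genes on which the peaks lie. Because inputs were the controls for peak calling, these levels are not fully independent of the choice of peaks. More host genes were higher in the M group than lower, and most differences were small. Of the 310 hosts, 5 without a symbol were not in the gene table and 3 (INPP5A, PPHLN1 and HFE) had a mean under 0.5 FPKM, which left 302 in the limma fit on log2(FPKM + 0.1). With an unadjusted p-value under 0.05, 77 hosts (25.5%) were higher in the M group, where 14.2% of all 12437 genes tested were, and 28 (9.27%) were lower, where 10.9% were. With a log2 fold change over 1 as well, 16 hosts were higher (5.30%, background 4.01%) and 7 lower (2.32%, background 5.25%). All 3 M libraries lay above all 3 Y libraries for 98 hosts (32.5%, background 19.8%) and below them for 31 (10.3%, background 13.9%). With the Benjamini-Hochberg adjustment over all genes, limma called 0 hosts and 4 genes in all (0.0322%), against the 105 hosts under an unadjusted 0.05. The median log2 fold change was 0.17 over the hosts and 0.04 over all genes tested.

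The hosts of shorter peaks leaned the same way. Among the 441 hosts of shorter later-exon peaks tested, 155 (35.1%) had all M libraries above all Y libraries and 45 (10.2%) below, with a median log2 fold change of 0.21. Among the 246 hosts tested that carried wide peaks and no other differential peak, these counts were 65 (26.4%) and 29 (11.8%). When the libraries were scaled to the same median, 12 hosts were higher (3.97%, background 3.26%) and 12 lower (3.97%, background 5.87%) by the fold rule. Under this scaling all M libraries lay above all Y libraries for 87 hosts (28.8%, background 16.7%) and below for 41 (13.6%, background 17.3%). The counts rested on single M libraries. Without replicate 2 of the M group, 34 hosts were higher (11.3%, background 7.32%) and 18 lower (5.96%, background 8.98%). The adjusted threshold was then passed by 91 of the 302 hosts tested and by 2403 of all 12437 genes tested, so the rise was not particular to hosts. Without replicate 1 of the M group, 7 were higher (2.32%, background 1.99%) and 2 lower (0.662%, background 1.31%). The Sertoli, stromal and spermatid marker sums given above moved with the same groups and the same replicates, and their part in these counts was not tested.

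**Figure D3:**
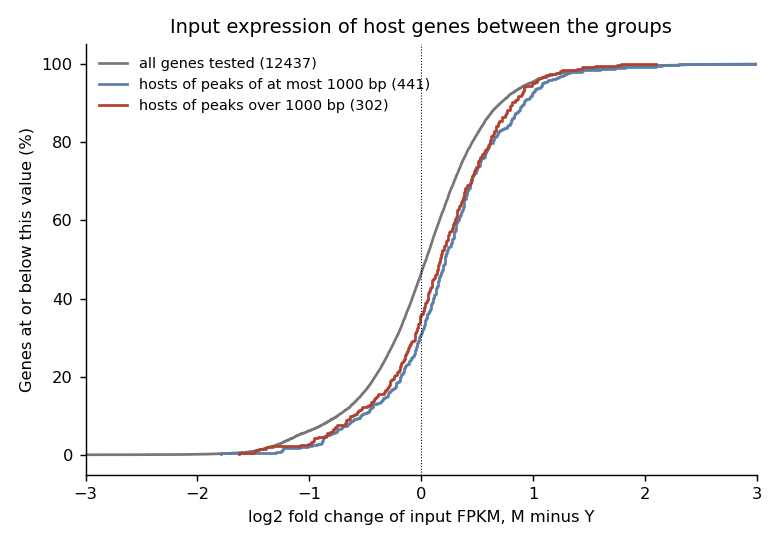
Cumulative share of genes (%) by log2 fold change of the input FPKM (M minus Y) for all 12437 genes tested (grey), 441 hosts of peaks of at most 1000 bp (blue) and 302 hosts of wide peaks (red). Both host curves lie to the right of the grey curve around 0, with medians of 0.17 (wide), 0.21 (shorter) and 0.04 (all), and values beyond 3 in either direction are not drawn.

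Host genes were also sorted by what their products do, into groups chosen after the values were seen. Their counts and medians are therefore descriptions, to be read beside the 14.2% higher and 10.9% lower of all genes tested and the 25.5% and 9.27% of all hosts of wide peaks at an unadjusted limma p-value under 0.05. Of 12 surface receptors, 6 (50%, background 14.2%) were higher in the M group at that threshold and 0 lower (background 10.9%), with a median log2 fold change of 0.57. FGFR1 (ENSBGRG00000015839), a fibroblast growth factor receptor with a 1217 bp peak in exon 9 of 16 at chr28:20631789-20633005, was at 0.889, 0.975 and 0.611 FPKM in the Y group and 3.44, 2.39 and 3.14 in the M group. Every M library was above every Y library, with a log2 fold change of 1.75 (SE 0.24, limma adjusted p 0.129). LPAR1 was at 1.57, 1.80 and 1.48 FPKM in the Y group and 3.01, 4.28 and 4.40 in the M group, and its groups did not overlap either (log2 fold change 1.21, SE 0.20, limma adjusted p 0.154). IGF2R (0.81), NOTCH1 (0.84), a receptor of cell-cell signalling, NEO1 (0.64) and LRP1 (0.61), an endocytic receptor, were the others, given as log2 fold changes. TGFBR3, the co-receptor betaglycan, was at 8.70, 11.4 and 11.6 FPKM in the Y group and 8.71, 8.02 and 9.96 in the M group, with overlapping groups.

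Of 11 actin-binding and nuclear envelope proteins, 6 (54.5%, background 14.2%) were higher and 0 lower (background 10.9%) by the same threshold, with a median of 0.44. FMNL2 (ENSBGRG00000015350), a formin that elongates actin filaments, has its peak of 1325 bp in exon 18 of 27 at chr2:102246829-102248153. It was at 0.527, 0.573 and 0.499 FPKM in the Y group and 2.68, 1.45 and 2.30 in the M group, and all M libraries were higher (log2 fold change 1.78, SE 0.28, limma adjusted p 0.129). PDLIM3, a PDZ and LIM protein of actin bundles, was at 0.284, 0.238 and 0.387 FPKM in the Y group and 1.35, 0.449 and 0.944 in the M group, where replicate 2 lay near the Y libraries. SYNE2 was at 4.29, 3.58 and 3.66 FPKM in the Y group and 8.80, 5.24 and 6.52 in the M group, with no overlap (log2 fold change 0.79, SE 0.21, limma adjusted p 0.154). MYO7A (0.99), an unconventional myosin, FLNA (0.89), the actin cross-linker filamin A, and MACF1 (0.44), which joins microtubules to actin, were higher as well on the log2 scale. The cortical scaffolds IQGAP1 (-0.02) and IQGAP3 (-0.40) had overlapping groups.

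Chromatin regulators formed a group of 13 hosts with a median of 0.38, of which 6 (46.2%, background 14.2%) were higher in the M group at the unadjusted threshold and 0 lower (background 10.9%). For 8 of them (61.5%, background 19.8%) all M libraries lay above all Y libraries. KDM6A (ENSBGRG00000010653), an X-linked demethylase of H3K27, was at 1.72, 1.93 and 1.61 FPKM in the Y group and 4.199, 2.84 and 3.22 in the M group. KDM5C, an X-linked demethylase of H3K4, was at 2.56, 2.36 and 2.61 FPKM in the Y group and 5.76, 3.10 and 4.17 in the M group. For both genes every M library was higher, with log2 fold changes of 0.91 (SE 0.20) and 0.72 (SE 0.23). TET3, which oxidises 5-methylcytosine in DNA, carried the widest peak of the group, 39637 bp in exon 2 of 13, and was low, at 0.5005, 0.535 and 0.511 FPKM in the Y group and 1.66, 0.858 and 0.840 in the M group. TRRAP (0.45), the scaffold of histone acetyltransferase complexes, JADE3 (0.69), of a histone acetyltransferase complex, and EHMT1 (0.48), an H3K9 methyltransferase, completed the 6. PBRM1 was at 4.68, 4.74 and 4.34 FPKM in the Y group and 6.41, 4.79 and 6.10 in the M group, which did not overlap but missed the threshold (unadjusted limma p 0.0904). BAZ2B and UHRF2, readers of histone marks, had log2 fold changes of -0.20 and -0.18 with overlapping groups.

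**Figure D4:**
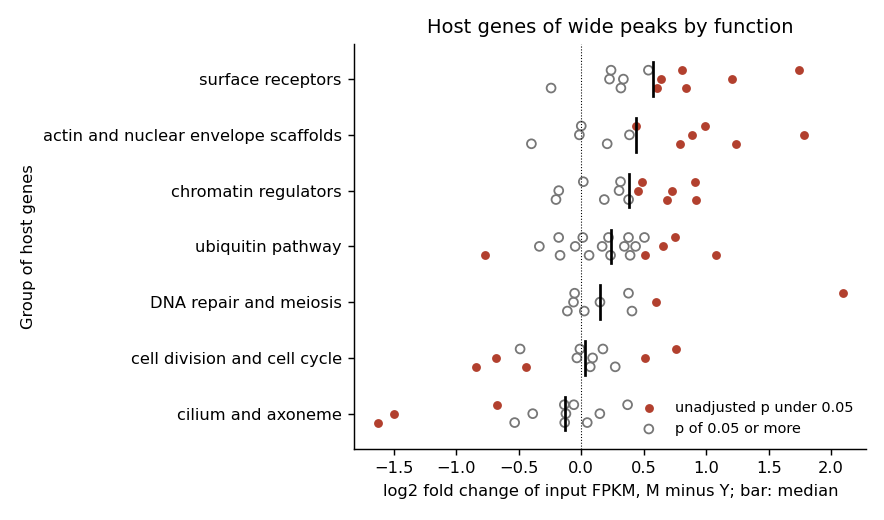
log2 fold change of the input FPKM (M minus Y) of each host gene in the 7 groups by function, with the median as a bar. Filled points have an unadjusted limma p under 0.05, and the medians run from -0.13 for cilium and axoneme genes to 0.57 for surface receptors.

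Genes of the ubiquitin pathway were the largest group, with 19 hosts and a median of 0.23. At the unadjusted threshold 4 were higher (21.1%, background 14.2%) and 1 lower (5.26%, background 10.9%), shares near those of all hosts of wide peaks. The higher genes were LONRF3 (1.08), ZYG11B (0.75), HUWE1 (0.65) and CBLB (0.51), all parts of ubiquitin ligases or RING proteins. HUWE1 was at 5.87, 5.77 and 5.24 FPKM in the Y group and 11.02, 6.72 and 9.44 in the M group, with all M libraries higher. USP25, a deubiquitinase with a 3701 bp peak in exon 14 of 26, was at 18.7, 14.5 and 17.8 FPKM in the Y group and 7.78, 13.2 and 9.34 in the M group, where all libraries were lower (log2 fold change -0.77, SE 0.22). UBE2M, the NEDD8-conjugating enzyme, had a peak of 39134 bp that covered 88.4% of its gene, and its FPKM of 2.09, 1.99 and 2.02 in the Y group overlapped the 2.23, 2.05 and 2.62 of the M group.

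Of 12 genes of cilia and of the sperm axoneme, 0 were higher (background 14.2%) and 3 lower (25%, background 10.9%) at the unadjusted limma threshold, with a median of -0.13. For 2 of the 3 all M libraries lay below all Y libraries. IQCA1L (ENSBGRG00000006649), named for its IQ and AAA domains, carried wide peaks of 6318 bp in exon 11 and 6189 bp in exon 2 of 20. It was at 5.81, 5.06 and 5.90 FPKM in the Y group and 1.06, 4.01 and 1.60 in the M group, and all M libraries were lower (log2 fold change -1.50, SE 0.43, limma adjusted p 0.154). CCDC63, needed for sperm flagella, was at 9.44, 8.84 and 11.6 FPKM in the Y group and 1.21, 9.40 and 2.61 in the M group, so that its log2 fold change of -1.63 rested on replicates 1 and 3 and the groups overlapped. IQCE, a protein of the ciliary base, was at 18.7, 15.8 and 17.0 FPKM in the Y group and 6.89, 12.4 and 14.3 in the M group, all lower. The axonemal dynein genes DNAH5 (0.15) and DNAH11 (0.37) and the centrosomal CEP290 (0.05) had overlapping groups. The spermatid markers were lower in the same libraries, and their part in these values was not tested.

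Of 9 genes of DNA repair and meiosis, 2 were higher (22.2%, near the 25.5% of all hosts, background 14.2%) and 0 lower (background 10.9%), with a median log2 fold change of 0.15. The meiotic recombinase DMC1 was at 6.395, 5.78 and 7.13 FPKM in the Y group and 6.10, 5.65 and 6.70 in the M group. TERB1, which tethers telomeres to the nuclear envelope in meiosis, was at 13.4, 13.8 and 13.1 FPKM in the Y group and 11.6, 15.0 and 14.6 in the M group. Both genes overlapped between the groups. XRCC4 (ENSBGRG00000002717) carries the symbol of a factor of end joining, but its GO terms include calcium ion binding and cell adhesion and not DNA repair. Its place in this group thus rests on the symbol alone. The gene had a peak of 7977 bp in exon 7 of 17 at chr8:90935243-90943219, and the largest positive value of all hosts. It was at 0.595, 0.358 and 0.515 FPKM in the Y group and 5.55, 0.770 and 3.01 in the M group, where replicate 1 was the highest and replicate 2 stood close to the Y libraries. The log2 fold change was 2.10 (SE 0.64, limma adjusted p 0.154) and lay between 1.50 and 2.85 when each library was left out. PALB2, the partner of BRCA2, was the other gene at the threshold (0.60).

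Among 12 genes of cell division, 2 were higher in the M group (16.7%, background 14.2%) and 3 lower (25%, background 10.9%), with a median log2 fold change of 0.03. MELK, a mitotic kinase, was at 5.87, 5.52 and 6.06 FPKM in the Y group and 1.88, 4.72 and 3.62 in the M group, all lower. LATS2, a kinase of the Hippo pathway, was at 6.48, 6.70 and 7.43 FPKM in the Y group and 4.81, 5.27 and 4.95 in the M group. Its log2 fold change of -0.45 (SE 0.14) had groups clearly apart, while its relative LATS1, also a host, was at 0.17. CDK16 (0.76) and ORC3 (0.51), a subunit of the origin recognition complex, were higher on the log2 scale, and CDKN3, a phosphatase that acts on cyclin-dependent kinases, was lower (-0.68) with overlapping groups.

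Outside these groups, the largest positive log2 fold changes among hosts with groups apart and an unadjusted p-value under 0.05 in the limma fit were those of PXDN (1.55), SCARA3 (1.43), TRIB2 (1.39), GPT2 (1.25) and ATP10D (1.14). PXDN, a peroxidase that cross-links collagen IV in basement membranes, was at 2.72, 3.09 and 2.22 FPKM in the Y group and 12.96, 5.83 and 6.70 in the M group, where replicate 1 was highest. TRIB2, a pseudokinase, had a 27821 bp peak over 82.4% of its gene and was at 1.17, 3.17 and 2.21 FPKM in the Y group and 7.05, 4.18 and 5.48 in the M group. GPT2, the mitochondrial alanine aminotransferase, was at 2.93, 2.48 and 2.40 FPKM in the Y group and 9.65, 4.28 and 6.11 in the M group. For these 3 genes, for SCARA3, a scavenger receptor, and for ATP10D, a phospholipid flippase, the lowest M library was above the highest Y library, and that lowest library was replicate 2 for all 5.

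Among hosts with groups apart and an unadjusted p-value under 0.05 in the limma fit, the largest negative values after IQCA1L were those of KCNH6 (-1.47), TTC4 (-1.45), TGM1 (-1.39), FAM135B (-1.32) and ACACB (-1.02), followed by CLPB (-0.98), SYNJ2 (-0.96), COL22A1 (-0.96) and TMEM232 (-0.92). KCNH6, a potassium channel, was at 16.9, 10.2 and 9.20 FPKM in the Y group and 1.83, 8.89 and 4.26 in the M group, where replicate 2 came close to the Y libraries. TTC4, a co-chaperone, was at 30.1, 25.2 and 24.97 FPKM in the Y group and 4.28, 17.6 and 12.1 in the M group. CLPB, a mitochondrial disaggregase with a 24437 bp peak in exon 7 of 17, was at 27.7, 20.9 and 23.7 FPKM in the Y group and 6.64, 18.0 and 14.6 in the M group. Replicate 1 of the M group was the lowest library for each of these 10 genes and replicate 2 was the highest of the M group for all 10. FAM135B, which carried 2 wide peaks, had its highest M value in replicate 2 as well (4.36 FPKM, against 4.25 in replicate 3 and 1.61 in replicate 1).

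**Figure D5:**
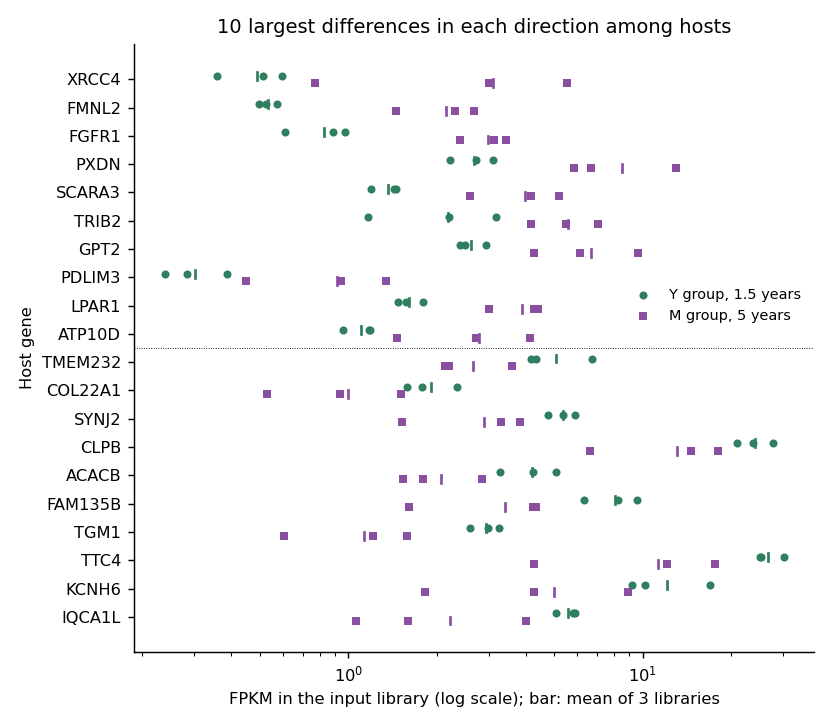
FPKM in each input library (log axis) for the 10 largest positive and the 10 largest negative differences among host genes whose groups did not overlap and whose unadjusted limma p was under 0.05. Green circles are the Y libraries, purple squares the M libraries and bars the means of 3 libraries, and the genes run from XRCC4 (log2 fold change 2.10) to IQCA1L (-1.50).

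Host genes of wide peaks were expressed at middle levels. Their median was 4.01, 4.05 and 3.79 FPKM in the Y libraries and 4.81, 4.24 and 4.62 in the M libraries, where the genes tested had medians of 4.07 to 4.19 and 4.22 to 4.42. Of the 305 hosts in the gene table, 41 (13.4%) had a mean over 10 FPKM, against 15.3% of the 20953 genes in the table and 25.8% of the genes tested. The highest was HDLBP, the RNA-binding protein vigilin, at 76.6, 76.2 and 72.9 FPKM in the Y group and 41.1, 72.8 and 71.1 in the M group. The M libraries were all lower, though 2 of the 3 by little (log2 fold change -0.33, SE 0.24, limma adjusted p 0.397). Next came UTP6, of the small ribosomal subunit processome, at a mean of 34.0 FPKM, PFKP, a phosphofructokinase, at 23.0, ORC6 at 21.4 and the cytokine receptor kinase JAK1 at 20.5. Of these, JAK1 had groups apart, at 18.0, 18.8 and 18.5 FPKM in the Y group and 26.7, 19.9 and 21.3 in the M group (log2 fold change 0.28, SE 0.16).

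The difference between the groups was set against the length of the host gene and the width of its peak. With the hosts cut into 5 sets of equal size, from the shortest (545 to 21582 bp) to the longest genes (165037 to 893621 bp), the M libraries lay above the Y libraries for 13, 14, 22, 26 and 23 hosts and below for 9, 6, 4, 6 and 6. The median log2 fold change was 0.06, 0.09, 0.23, 0.31 and 0.24. With the hosts cut into 3 sets by their widest peak, from 1005 to 2325 bp up to 5556 to 120070 bp, the hosts above numbered 35, 31 and 32, and the medians were 0.24, 0.16 and 0.14. Over all genes tested, of any length, the shares above and below were 19.8% and 13.9%, and lengths of genes without a differential peak were not used here. These values are a description, as length is tied to the choice of the peaks.

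GO terms were available for 276 of the hosts tested, and the shares of most terms were close to those of the 11264 genes tested with a term. Protein kinase binding had the highest ratio of shares among the 31 terms with 8 or more hosts, at 9 genes (3.26% against 1.45%), among them the centralspindlin subunit RACGAP1, FBXO5, an inhibitor of the anaphase-promoting complex, and the translation regulator GCN1. Plasma membrane covered 38 hosts (13.8% against 9.66%), of which 19 had all M libraries above all Y libraries (background 19.8%) and 3 below (background 13.9%). The term membrane covered 22 hosts (7.97% against 5.14%), and of these 3 were above and 4 below by the same rule. Of the 9 hosts with protein kinase binding, 0 were above and 0 below. Calcium ion binding covered 10 hosts (3.62% against 2.09%) and protein ubiquitination 8 (2.90% against 1.71%). In the hosts of shorter later-exon peaks, protein kinase binding was at 2.02%, plasma membrane at 12.4%, calcium ion binding at 4.29% and protein ubiquitination at 1.26%. DNA binding was carried by 17 hosts (6.16%), close to the 7.01% of the background and under the 17.7% of the hosts of shorter later-exon peaks. DNA-binding transcription factor activity was at 3.62% against 4.32% in the background and 12.9% in the hosts of shorter peaks. The term spermatogenesis was carried by 4 hosts (1.45% against 1.75%), namely LGR4, METTL14, NOTCH1 and RACGAP1, and cilium by 0, although 12 hosts were sorted above as cilium and axoneme genes by their products.

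The term RNA-directed DNA polymerase activity, the reverse transcriptase of retrotransposons, stood on 49 of the hosts tested (17.8% against 15.96%). It followed gene length, with 4.84, 9.68, 12.9, 16.1 and 37.1% of the hosts in the 5 sets from the shortest to the longest genes. The same was seen across all 1207 genes with a differential peak (1.65, 2.90, 8.71, 14.1 and 27.7%). Hosts with the term had a median length of 132178 bp and hosts without it 55365 bp. Genes such as ATM, BAZ2B and CBLB carried it, whose own products are not reverse transcriptases.

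One gene of the m6A machinery hosted a wide peak, METTL14 (ENSBGRG00000004579), the RNA-binding partner of METTL3 in the methyltransferase. The peak covered 9215 bp at chr6:121542112-121551326, or 22.7% of the gene, in exon 10 of 11, and ended close to the 3′ end of the gene. METTL14 was at 2.18, 2.29 and 1.78 FPKM in the Y group and 3.28, 2.27 and 2.45 in the M group, and the groups overlapped (log2 fold change 0.33, SE 0.20, limma adjusted p 0.323). Of the 21 listed writers, erasers and readers, 14 were found under their symbol. Only ZC3H13, a writer subunit, was at the unadjusted threshold, at 2.96, 2.20 and 2.12 FPKM in the Y group and 4.83, 3.23 and 4.84 in the M group (log2 fold change 0.79, limma adjusted p 0.154), and 0 were lower. The demethylases FTO (-0.29) and ALKBH5 (-0.14) and the readers YTHDF2 (0.06), YTHDC1 (0.17) and YTHDC2 (0.04) had small log2 fold changes with unadjusted p-values over the threshold. The adjusted limma threshold called 0 of the 14.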

How the data were processed

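The FPKM values of 20953 genes in 6 input libraries were deposited by the authors, who trimmed reads with Trimmomatic and aligned them with HISAT2 2.0.4 (per the submitters' processing notes) to LU_Bosgru_v3.0. The program behind the FPKM is not given in the sources used here. Steps between low FPKM values were only approximate, so whole reads were not recovered and depth is unknown. The authors used MeTDiff for peak calling and for the comparison of ages and ChIPseeker for annotation, and the table used gives position, width in bp and exon, with no value per animal. Peak lists of the single groups (8 rows each here) and IP values were not used.

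Genes with a mean of at least 0.5 FPKM (12437) were tested with limma 3.58.1 (R 4.3.3, eBayes with a trend) on log2(FPKM + 0.1), two-sided, M minus Y, after a trial on simulated data. With 3 libraries against 3, exact permutation of 1 gene cannot go below 0.1. Other steps used Python 3.11.15, pandas 2.3.3, numpy 2.4.6 and matplotlib 3.10.9. Hosts were matched by identifier, as 3871 symbols have more than 1. Members, lists and tests were chosen with earlier results of these data known. Named genes are those with the 10 widest peaks, 3 or more wide peaks, peaks nearest to 1000 bp, the 10 largest differences in each direction among hosts with groups apart and an unadjusted p under 0.05, the 5 highest means, peaks wider than the gene, or a place in the marker lists. Other genes, and the groups by function, were named after their values were seen. Alternatives covered the pseudocount, filter, scaling, eBayes form, replicate block, each library, width and background. Exons and motifs inside the peaks were not analysed here, as they need a genome of this build. Some items that the naming rule selects are not reported here.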

Additional observations from a re-analysis of the deposited data

How the results depend on the processing

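Over the hosts of wide peaks, the median log2 fold change kept its sign under all 15 alternatives, between 0.12 with libraries scaled to the same median and 0.23 without M replicate 2. Among these, eBayes without a trend, robust eBayes and the replicate block leave fold changes as they are, so they could not change it. The counts by the fold rule were less stable. The 16 hosts higher in the M group became 57 with a fold change of 1.5 in place of 2, for which no share over all genes was computed. They became 7 with a pseudocount of 1 (2.32%, background 0.989%). Among hosts with no other differential peak (chosen after seeing the data) they were 9 (3.66%, background 4.01%). With each library left out they ran from 7 to 34 (2.32% to 11.3%), while the share over all genes tested ran from 1.99% to 7.32%. The 7 lower became 25 with the fold change of 1.5, also without a computed share over all genes. With libraries scaled to the same median there were 12 lower (3.97%, background 5.87%). With each library left out the lower hosts ran from 2 to 18 (0.662% to 5.96%), against 1.31% to 8.98% of all genes tested. Hosts with all M libraries above all Y libraries numbered 98, and 65 (26.4%, background 19.8%) among hosts with no other differential peak. With a library left out they numbered 103 to 146 (34.1% to 48.3%), against 22.2% to 33.4% of all genes tested. Those below numbered 31, and 34 to 51 (11.3% to 16.9%, background 15.3% to 25.4%) with a library left out (51 without M replicate 2, 47 without M replicate 3). Leaving out a library can only keep or add genes whose groups do not overlap. These rises were therefore fixed in advance and do not measure stability. The median host level of the Y group was 3.92 FPKM and 3.89 to 4.11 with a library left out. With all genes that have a GO term as background, the ratio of shares went from 1.11 to 0.92 for RNA-directed DNA polymerase activity and from 0.83 to 1.11 for spermatogenesis. The cause of these changes was not tested. The Y and M testes came from different yaks, so by design the replicate numbers do not pair the animals. The deviations of samples with the same replicate number correlated at -0.0222, -0.0909 and 0.0067. As deviations from the mean of a small group, they could not decide on a pairing by themselves. With the replicate block, 16 hosts were higher (5.30%, background 4.05%) and 8 lower (2.65%, background 5.27%). Of the single named genes, 489 of the values under alternatives kept their side of the threshold, 34 lost it and 1 gained it, with no change of direction among called values. The number of fragments behind an FPKM value is unknown, which limits what can be said of hosts under 1 FPKM.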

Other observations

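Wide peaks lay on genes of the minus strand more often than of the plus strand, at 191 (58.4%) against 136 (41.6%). This was not particular to them, as peaks in exon 1 (129 against 92) and in 5′UTRs (51 against 39) leaned the same way. The shorter later-exon peaks were at 266 against 277 and the 3′UTR peaks at 114 against 143. Median width was 3538 bp on minus and 3198.5 bp on plus strand genes.

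By chromosome, the wide peaks, 327 of the 1438 differential peaks, were spread over 31 sequences. The highest counts were 26 of 77 differential peaks on chromosome 3 and 19 of 51 on chromosome 12. Chromosomes 7 (18 of 61) and 8 (18 of 74) followed. Chromosome 28 had 9 of 22, a larger share than any of these. The 10 hosts on the X chromosome, singled out after their values were seen, had a median log2 fold change of 0.71. Of these, 7 had all M libraries above all Y libraries and an unadjusted limma p under 0.05 (over all genes tested, 19.8% and 14.2%; CDK16, FLNA, HUWE1, JADE3, KDM5C, KDM6A and LONRF3), 1 was lower (CT83), and AIFM1 and KLHL13 overlapped. The share over all X-linked genes was not computed, as the gene table used here gives no chromosome. CT83 was at 3.71, 3.31 and 4.04 FPKM in the Y group and 1.20, 2.59 and 2.87 in the M group. PHKA2, a phosphorylase kinase subunit, carried a wide peak on the sequence named Y and was at 3.12, 3.11 and 2.30 FPKM in the Y group and 1.27, 2.06 and 2.02 in the M group.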
